A study of Mus musculus with 6 samples.

Results

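The genes described here are the 10 enzymes that modify the heparan sulphate chain after it has been polymerized, chosen by symbol and by role out of 23420 gene symbols. They are the N-deacetylase/N-sulphotransferases Ndst1, Ndst2 and Ndst3, the glucuronyl C5-epimerase Glce, the 2-O-sulphotransferase Hs2st1, the 6-O-sulphotransferases Hs6st1, Hs6st2 and Hs6st3, and the extracellular endosulphatases Sulf1 and Sulf2. Heparan sulphate is a sugar chain carried by cell surface and matrix proteoglycans, and it serves as a co-receptor that brings FGF ligands and FGF receptors together. Ndst enzymes replace acetyl groups by sulphate and thereby open the chain to the enzymes that follow, Glce turns glucuronic into iduronic acid, Hs2st1 sulphates the iduronic acid and Hs6st enzymes sulphate the glucosamine. Sulf enzymes act outside the cell and take 6-O-sulphate off again, so that the 6-O-sulphation of a chain is set by opposing activities. In the lacrimal gland, whose bud grows in response to Fgf10 from the surrounding mesenchyme, heparan sulphate is required for FGF signaling.

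RNA was sequenced from E14.5 lacrimal gland epithelium, dissected by laser capture from mouse embryos of mixed background. The 3 control samples are titled WT, and the authors describe them as Le-Cre. This transgene drives Cre recombinase in the ectoderm of the eye, including the conjunctival epithelium and the lacrimal gland. The authors' methods also name Le-Cre mice with Pea3+/-, Ermflox/+ and Er81flox/+ as controls. The titles do not give the genotype of each control sample. The 3 Pea3 TKO samples carried Le-cre, Pea3-/-, Ermfl/fl and Er81fl/fl, which removes Pea3 (Etv4) from every cell of the embryo and Erm (Etv5) and Er81 (Etv1) only where Cre is active. How many embryos went into a sample is not given in the sources used here, so that p-values measure the spread between these samples. The libraries held 14194775 to 17860140 counts, and levels are given as CPM, the count per 1000000 counts of the library after TMM normalization, at which 3 counts in a library correspond to 0.169 to 0.21 CPM. A gene is said to have risen or fallen where the edgeR quasi-likelihood test gave an adjusted p under 0.05 over the 13087 genes tested.

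The targeted genes followed the labels. Etv5 fell from 1058 ± 127 CPM to 139 ± 46 CPM (SD, n = 3 each), Etv4 from 151 ± 29 CPM to 19.5 ± 8.8 CPM and Etv1 from 31.8 ± 2.8 CPM to 9.52 ± 0.41 CPM. Epithelial markers (Cdh1, Epcam, Krt8, Krt18, Cldn7 and Esrp1) summed to 2715 to 3406 CPM in control and 4778 to 5647 CPM in Pea3 TKO, and 5 of these 6 genes rose. Among lacrimal gland bud markers, Sox9, Sox10 and Six2 fell and Pax6 rose, and each was detected in every library. Of 7 markers of stratified ocular surface and skin epithelium 6 rose (Krt5, Krt14, Krt15, Krt13, Krt6a and Sfn). Trp63 did not (log2 fold change -0.04, edgeR adjusted p = 0.92). The 7 genes summed to 1580, 599 and 542 CPM in control replicates 1, 2 and 3 and to 5180 to 7390 CPM in Pea3 TKO. For comparison with the counts in these marker lists, 13.6% of all tested genes rose and 11.3% fell. Lists for endothelium, immune cells, melanocytes, Schwann cells, erythroid cells and skeletal muscle each summed to at most 29.5 CPM in any library. Emcn, Tyrp1, Cdh19, Hba-a1 and Hba-a2 were at 0 counts throughout. Of the 5 erythroid genes only 3 were among the gene symbols counted, without Hbb-bs and Hbb-bt. The erythroid sum was therefore that of Alas2 alone and rests on no globin gene. Lens markers summed to 151 to 983 CPM in control and 186 to 350 CPM in Pea3 TKO. Of the 37 genes in these 7 lists only 16 were tested, of which 0 passed the edgeR test (1 at an unadjusted p under 0.05, and 1 by DESeq2). The Pea3 TKO libraries were not alike. Mesenchyme markers (10 genes, of which Dcn and Lum rose) summed to 404 CPM in Pea3 TKO replicate 1 and 567 CPM in replicate 2, but to 14.2 CPM in replicate 3, against 19.2 to 117 CPM in control. The same replicates 1 and 2 held 0.445 and 0.21 CPM from 4 Y-linked genes, whereas the other 4 libraries held 136 to 175 CPM. Embryo sex and mesenchymal RNA were therefore unbalanced between the groups. The log2 fold change of each tested enzyme below is also given for the 4 libraries with Y-linked reads alone. There Pea3 TKO replicate 3 stood against the 3 controls and was assumed to vary as they did. Count ratios, family shares and summed levels were not summarized for these 4 libraries.

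Of the 10 genes, 8 had enough counts to be tested. Ndst3, an N-deacetylase/N-sulphotransferase, had 0 counts in all 6 libraries, which allows at most 0.169 to 0.21 CPM, and Hs6st3 had 0 to 8 counts per library. In control buds the order of the levels per exonic length was led by Sulf2, with 58.6 ± 2.6 CPM per kb, and by Hs6st1, with 29.4 ± 0.84 CPM per kb. Ndst1 was next at 19.2 ± 3.2 CPM per kb, and the ranges of these 3 genes did not overlap with one another. The range of Ndst1, from 16.8 to 22.9 CPM per kb, overlapped that of Glce, from 10.9 to 17.2 CPM per kb. Ndst2 (13.5 ± 1.8 CPM per kb), Glce (13.2 ± 3.5), Hs2st1 (12.4 ± 1.9) and Hs6st2 (10.2 ± 2.1) formed a group in which each gene overlapped its neighbour. Sulf1 lay far below them at 0.765 ± 0.53 CPM per kb, and Hs6st3 at 0.0452 ± 0.050 CPM per kb. In the control bud the abundant enzymes were thus 1 sulphatase and 1 6-O-sulphotransferase, and the Sulf2 level stood above 91.4% of all tested genes with a known length. In Pea3 TKO the order of Sulf2 and Hs6st1 was kept but their ranges overlapped, at 41.9 ± 4.0 and 35.4 ± 5.8 CPM per kb. Hs6st2 and Sulf1 had come together in Pea3 TKO, at 3.54 ± 0.97 and 3.81 ± 2.2 CPM per kb with overlapping ranges. Such comparisons between genes depend on the annotated exonic length, here 7.807 kb for Hs6st2 and 11.294 kb for Sulf1. Without division by length their Pea3 TKO means were 27.7 and 43.1 CPM.

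**Figure D1:**
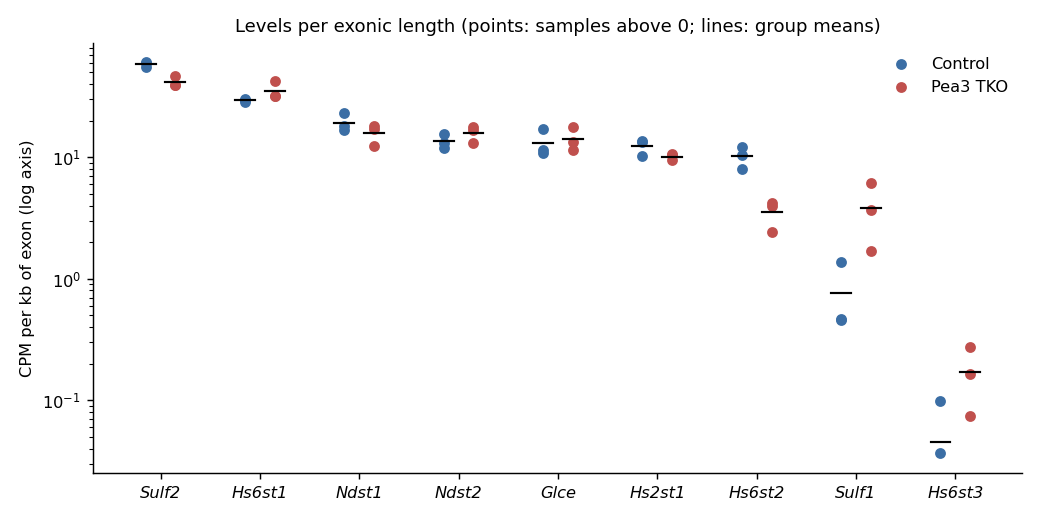
Level per kb of exon (log axis) of the enzyme genes in each control (blue) and Pea3 TKO (red) sample, ordered by the control mean. Points are samples above 0, lines are group means including samples at 0, and Ndst3 is left out because it had 0 counts in all samples. In Pea3 TKO the ranges of Hs6st2 and Sulf1 overlap below those of the other tested enzymes, whereas in control Hs6st2 lies above Sulf1.

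Of the 8 tested genes, 2 fell (Hs6st2 and Sulf2), 1 rose (Sulf1) and 5 did not pass the test. For comparison, 25.0% of all tested genes passed, 13.6% as increases and 11.3% as decreases. The median log2 fold change of the 8 was -0.09, against 0.01 over all tested genes. For 4 of the 8 genes the control and Pea3 TKO ranges did not overlap, whereas this was so for 43.9% of all tested genes. The genes that changed acted on 6-O-sulphation, and Hs6st1 was the remaining gene without overlap. These shares say nothing particular about the set, and what follows concerns the single genes.

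**Figure D2:**
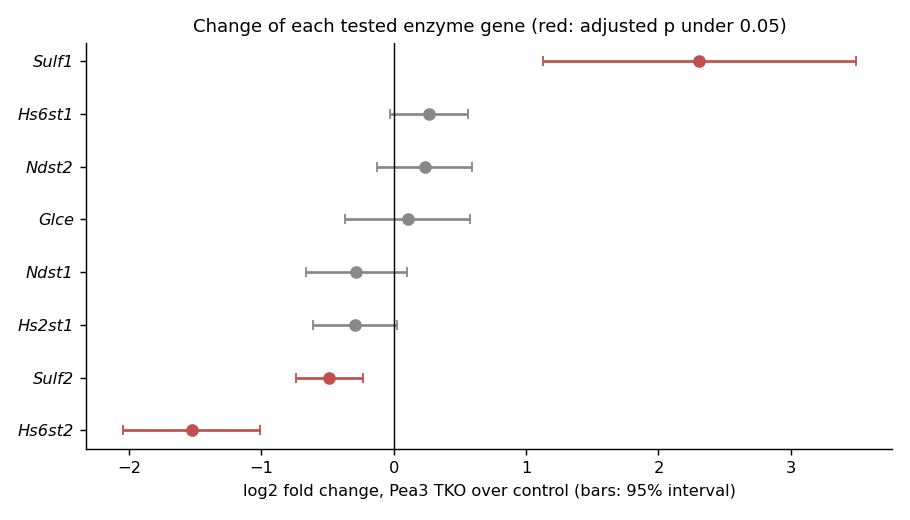
Log2 fold change of Pea3 TKO over control for the 8 tested genes, with the 95% interval of the quasi-likelihood fit (x axis, log2 units). Sulf1 lies at 2.31 with the widest interval, Hs6st2 at -1.53 and Sulf2 at -0.49 (red, adjusted p under 0.05), and the intervals of the other 5 genes (grey) include 0.

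The 6-O-sulphotransferases were first examined, since Hs6st2 showed the largest decrease among the tested enzymes. Hs6st2 lies on chromosome X from 51387212 to 51681856 (GRCm38, minus strand). It was measured at 62.9, 95.3 and 81.1 CPM in control replicates 1 to 3 and at 19.0, 31.1 and 32.9 CPM in Pea3 TKO replicates 1 to 3. All mutant samples were below all controls, and the highest mutant sample lay well under the lowest control. The log2 fold change was -1.53 (standard error 0.23, edgeR adjusted p = 0.0017), a 2.88-fold decrease. In bulk samples of this kind, fewer cells that express a gene and less RNA per cell cannot be told apart. Hs6st2 is X-linked and embryo sex was unbalanced between the groups, and the part of sex in its values cannot be told apart here. With the 4 libraries that held Y-linked reads the log2 fold change was -1.27 (standard error 0.28, edgeR adjusted p = 0.0597), and with Y-linked expression as a covariate it was -1.30 (edgeR adjusted p = 0.0652). Leaving out any single sample kept the decrease between -1.67 and -1.32, with an edgeR adjusted p of at most 0.0105.

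Hs6st1, on chromosome 1 from 36068400 to 36106446 (plus strand), did not fall with its paralog. Its level was 158, 165 and 167 CPM in the controls and 178, 233 and 177 CPM in Pea3 TKO. Every mutant sample was above every control, but the log2 fold change of 0.26 (95% interval -0.03 to 0.56) did not pass the test (edgeR adjusted p = 0.17), and it was 0.13 with the 4 libraries that held Y-linked reads. Of its exons, 447 bases are shared with Gm37335 on the opposite strand, and the kit named in the labels is not stated to keep strand, so reads of both genes cannot be separated there. Hs6st3, on chromosome 14 from 119138341 to 119869815, had 3, 1 and 0 counts in control and 2, 4 and 8 counts in Pea3 TKO, too few for a test.

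The ratio of both genes within a library does not depend on normalization. There were 0.399, 0.578 and 0.487 counts of Hs6st2 for each count of Hs6st1 in the controls, and 0.107, 0.133 and 0.186 in Pea3 TKO, without overlap. The mean log2 ratio moved from -1.05 ± 0.27 to -2.85 ± 0.40, a difference of -1.80. The exact two-sided permutation test gave p = 0.1, the smallest that 3 samples against 3 allow (0.25 after Benjamini-Hochberg adjustment over 5 ratios). Per exonic length, Hs6st2 made up 25.6% ± 3.5 of the 6-O-sulphotransferase level in control and 9.07% ± 2.3 in Pea3 TKO (SD, n = 3 each). The summed level of the 3 genes was 39.7 ± 2.7 CPM per kb in control and 39.1 ± 6.3 CPM per kb in Pea3 TKO. Hs6st2 thus took a smaller part of the family in Pea3 TKO, whereas the sums of the groups differed by less than their spread. Hs6st3 over Hs6st1 overlapped between the groups (exact two-sided permutation p = 0.2), from counts near 0.

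**Figure D3:**
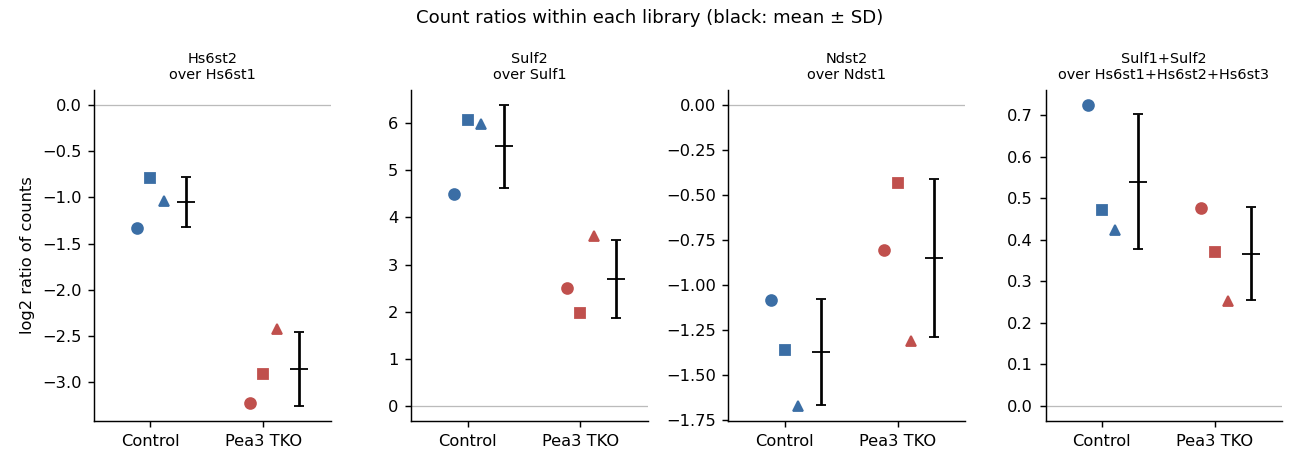
Log2 ratio of raw counts within each library for Hs6st2 over Hs6st1, Sulf2 over Sulf1, Ndst2 over Ndst1 and both Sulf genes over the 3 Hs6st genes (circle, square and triangle are replicates 1, 2 and 3, black bars the mean ± SD, and each panel has its own y axis). The groups separate for Hs6st2 over Hs6st1 and for Sulf2 over Sulf1 and overlap in the other panels.

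The start regions of these genes are shown because Pea3 factors are ETS proteins, which bind DNA around the core GGAA, and because Hs6st2 and Sulf2 fell while Hs6st1 did not. RefSeq windows of GRCm38.p6, from 250 bases before to 50 bases after an annotated start, were found for 8 of the 10 genes. Ndst1 and Sulf1 had no such window and were not searched. Each sequence is written 5′ to 3′ on the strand of the gene, and capitals mark GGAA or its complement TTCC. The windows are chrX:51681553-51681852 and chrX:51680428-51680727 for the annotated starts of Hs6st2 (minus strand), chr1:36068150-36068449 for Hs6st1 (plus strand), and chr2:166155634-166155933 and chr2:166155236-166155535 for Sulf2 (minus strand).
Hs6st2, first start: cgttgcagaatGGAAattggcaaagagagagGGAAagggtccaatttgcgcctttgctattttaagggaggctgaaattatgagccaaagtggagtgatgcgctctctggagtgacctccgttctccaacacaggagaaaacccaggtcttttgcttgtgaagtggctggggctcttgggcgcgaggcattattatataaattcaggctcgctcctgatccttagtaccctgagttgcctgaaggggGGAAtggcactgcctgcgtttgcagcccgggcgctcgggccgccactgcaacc
Hs6st2, second start: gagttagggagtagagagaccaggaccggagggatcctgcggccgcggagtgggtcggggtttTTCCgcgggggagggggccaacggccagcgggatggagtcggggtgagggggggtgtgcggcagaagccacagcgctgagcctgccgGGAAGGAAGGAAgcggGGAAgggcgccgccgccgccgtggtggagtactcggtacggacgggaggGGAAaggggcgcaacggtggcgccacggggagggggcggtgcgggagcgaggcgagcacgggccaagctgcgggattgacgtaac
Hs6st1: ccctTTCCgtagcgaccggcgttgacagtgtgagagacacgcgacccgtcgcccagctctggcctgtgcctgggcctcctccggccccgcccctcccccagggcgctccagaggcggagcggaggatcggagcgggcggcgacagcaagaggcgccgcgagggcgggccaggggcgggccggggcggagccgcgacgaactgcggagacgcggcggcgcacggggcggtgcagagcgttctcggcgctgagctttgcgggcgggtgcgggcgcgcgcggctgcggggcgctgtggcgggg
Sulf2, first start: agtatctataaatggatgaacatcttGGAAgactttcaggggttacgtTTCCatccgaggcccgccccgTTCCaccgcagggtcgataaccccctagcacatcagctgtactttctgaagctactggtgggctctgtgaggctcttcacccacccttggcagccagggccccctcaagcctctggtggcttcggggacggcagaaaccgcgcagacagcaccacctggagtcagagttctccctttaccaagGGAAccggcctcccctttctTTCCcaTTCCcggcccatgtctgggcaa
Sulf2, second start: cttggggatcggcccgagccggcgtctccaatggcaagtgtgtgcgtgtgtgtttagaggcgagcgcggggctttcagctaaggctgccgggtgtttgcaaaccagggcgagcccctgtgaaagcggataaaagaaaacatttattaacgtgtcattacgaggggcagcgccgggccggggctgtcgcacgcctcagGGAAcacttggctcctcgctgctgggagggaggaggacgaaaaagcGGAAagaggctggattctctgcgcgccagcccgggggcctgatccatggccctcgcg
On either strand GGAA matched 3 and 6 times in the Hs6st2 windows, 6 and 2 times in the Sulf2 windows and 1 time in the Hs6st1 window. Of the other enzyme genes with a window, none of which fell, Ndst2 had 3 matches, Glce 2, and Hs2st1 and Hs6st3 1 each. Ndst3, which was not detected, had 4 and 5 matches in its windows. The core is common, as 96% of all 32851 windows held it, with a median of 3 matches. The longer form CCGGAA, which contains the core, occurred in 14.9% of all windows and CCGGAAGT in 3.89%. Neither had a match in any window of the 8 enzyme genes with a window, which leave out Ndst1 and Sulf1. These matches describe letters only. Sites outside these windows, in more distant promoter or enhancer regions, were not searched, and binding was not measured in the files used here.

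The endosulphatases moved in opposite directions. Sulf2, on chromosome 2 from 166073089 to 166155663 (minus strand), was the most abundant of the enzyme genes per length and fell. It was measured at 350, 355 and 327 CPM in the controls and at 233, 273 and 232 CPM in Pea3 TKO, so that the groups were separated by a gap wider than the range of either. The log2 fold change was -0.49 (standard error 0.11, edgeR adjusted p = 0.0133), a decrease of 1.4-fold. Among the tested enzymes Sulf2 varied little between samples, with a coefficient of variation of 4.36% in control and 9.62% in Pea3 TKO. With the 4 libraries that held Y-linked reads the log2 fold change was -0.56 (edgeR adjusted p = 0.066), as large as with all samples. Without control replicate 2 the adjusted p was 0.0569 at a log2 fold change of -0.46. Exons of Sulf2 and of Ncoa3 on the opposite strand share 154 bases.

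Sulf1, on chromosome 1 from 12692277 to 12861192 (plus strand), removes the same sulphate groups as Sulf2 but was scarce in the control bud. It was measured at 15.5, 5.30 and 5.14 CPM in control replicates 1 to 3 and at 41.1, 69.2 and 18.9 CPM in Pea3 TKO replicates 1 to 3. The lowest mutant sample exceeded the highest control, yet both groups were spread over a wide range. The log2 fold change was 2.31 (standard error 0.53, 95% interval 1.13 to 3.49, edgeR adjusted p = 0.0122), a 4.95-fold increase. Pea3 TKO replicates 1 and 2, which had the highest Sulf1, were the libraries in which mesenchyme markers summed to 404 and 567 CPM. In Pea3 TKO replicate 3 these markers were at 14.2 CPM, below every control, and Sulf1 was 18.9 CPM. Control replicate 1, the highest control for Sulf1, was at 19.2 CPM for mesenchyme markers. It had the highest control sum of stratified epithelial markers, 1580 CPM. Control replicate 3, the lowest control for Sulf1, had the highest control sum of mesenchyme markers, 117 CPM. The stratified epithelial markers of Pea3 TKO replicate 3 summed to 5180 CPM, the lowest Pea3 TKO sum. The part of either cell type in the Sulf1 values was not tested. With the 4 libraries that held Y-linked reads the log2 fold change was 1.14 (standard error 0.63, edgeR adjusted p = 0.363), 1.8 without Pea3 TKO replicate 2 (adjusted p = 0.052) and 2.05 without control replicate 2 (adjusted p = 0.0531). It was 3.04 without control replicate 1 (adjusted p = 0.0016) and 2.34 without Pea3 TKO replicate 1 (adjusted p = 0.0377).

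The count ratio of both sulphatases was examined next, and the limits given for Sulf1 also apply to this ratio and to the Sulf1 share. A library held 22.5, 66.7 and 63.2 counts of Sulf2 for each count of Sulf1 in the controls and 5.65, 3.95 and 12.2 in Pea3 TKO, again without overlap. The log2 ratio differed by -2.81 between the groups (exact two-sided permutation p = 0.1, adjusted p = 0.25 over 5 ratios). Sulf1 nevertheless remained the minor sulphatase, with 1.28% ± 0.84 of the Sulf level per length in control and 8.04% ± 3.8 in Pea3 TKO. The summed Sulf level was 56.1 to 61.0 CPM per kb in control and 41.1 to 52.6 CPM per kb in Pea3 TKO, where the ranges did not overlap. Sulphatases set against 6-O-sulphotransferases, as counts of both Sulf genes over counts of the 3 Hs6st genes, gave 1.65, 1.39 and 1.34 in control and 1.39, 1.29 and 1.19 in Pea3 TKO. These groups overlapped, with a difference in the log2 ratio of -0.17 (exact two-sided permutation p = 0.3).

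**Figure D4:**
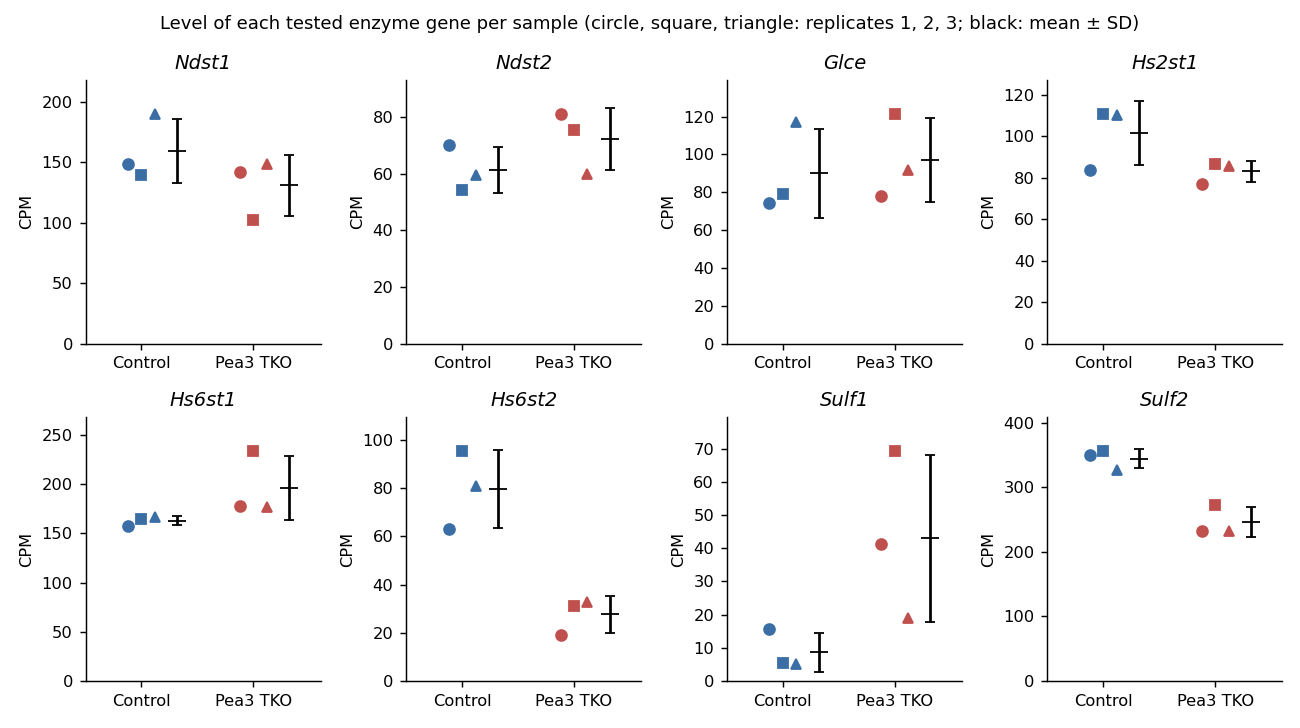
CPM of the 8 tested genes in each sample (y axes start at 0), with control in blue, Pea3 TKO in red and the mean ± SD of 3 samples in black. Hs6st2 and Sulf2 lie lower and Sulf1 and Hs6st1 higher in all Pea3 TKO samples than in all control samples, and the other 4 genes overlap.

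N-deacetylation and N-sulphation come first in the modification of the chain, and neither of the detected Ndst genes passed the test. Ndst1, on chromosome 18 from 60684494 to 60748650, had 149, 139 and 190 CPM in control and 142, 102 and 149 CPM in Pea3 TKO, and the groups overlapped. Its log2 fold change was -0.28 (95% interval -0.67 to 0.10, edgeR adjusted p = 0.26), and -0.090 with the 4 libraries that held Y-linked reads. Ndst2, on chromosome 14 from 20723730 to 20734562, had 70.2, 54.2 and 59.6 CPM in control and 81.0, 75.6 and 59.8 CPM in Pea3 TKO. Here the log2 fold change was 0.23 (95% interval -0.13 to 0.59, edgeR adjusted p = 0.33), and it was -0.023 with the 4 libraries that held Y-linked reads. There were 0.472, 0.389 and 0.314 counts of Ndst2 for each count of Ndst1 in control and 0.572, 0.74 and 0.403 in Pea3 TKO (exact two-sided permutation p = 0.2). Both genes together were at 32.7 ± 3.7 CPM per kb in control and 31.7 ± 3.0 CPM per kb in Pea3 TKO.

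Glce and Hs2st1, the epimerase and the 2-O-sulphotransferase that act on the same uronic acid, were each encoded by a single gene and also did not pass the test. Glce, on chromosome 9 from 62057248 to 62122655, varied as much within the groups as between them, with 74.2, 78.8 and 117 CPM in control and 77.9, 121 and 91.5 CPM in Pea3 TKO. Its log2 fold change of 0.11 (95% interval -0.37 to 0.58, edgeR adjusted p = 0.76) turned to -0.019 without control replicate 1 and to -0.087 without Pea3 TKO replicate 2, and was 0.032 with the 4 libraries that held Y-linked reads. Hs2st1, on chromosome 3 from 144429706 to 144570181, had 83.7, 111 and 110 CPM in control and 77.2, 86.5 and 85.4 CPM in Pea3 TKO. The control replicate 1 sample lay within the mutant range and the other controls above it. The log2 fold change was -0.29 (95% interval -0.61 to 0.03, edgeR adjusted p = 0.17), and without control replicate 1 it was -0.41 with an adjusted p of 0.0472. It was -0.24 with the 4 libraries that held Y-linked reads. For these 4 genes and Hs6st1, a change of 2-fold in either direction lay outside the 95% interval.

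The modification enzymes were next placed beside other genes of heparan sulphate synthesis, taken from a list of 50 genes by role. Of these 47 were tested, 7 rose and 9 fell, whereas 13.6% of all tested genes rose and 11.3% fell. Of 7 genes that build the linker tetrasaccharide 0 passed the edgeR test (1 at an unadjusted p under 0.05, and 1 by DESeq2), with a median log2 fold change of -0.19. Among 5 genes of chain polymerization only the polymerase Ext1 fell (log2 fold change -1.24, edgeR adjusted p = 4.9e-04). The 3-O-sulphotransferases, which add the last and rarest modification of the chain, all passed where they could be tested, 4 as decreases and 1 as an increase out of 5. For instance, Hs3st1 had a log2 fold change of -3.36 (edgeR adjusted p = 2.5e-06) and Hs3st3b1 of -4.83 (4.7e-05), whereas Hs3st5 had 3.54 (0.0113) from a control level of only 0.398 CPM. In the 4 libraries with Y-linked reads, the log2 fold changes were -1.41 for Ext1 (edgeR adjusted p = 0.0201), -3.18 for Hs3st1 (0.0012), -4.66 for Hs3st3b1 (0.0022) and 3.53 for Hs3st5, which no longer passed (0.17). The changes of the 8 enzymes described here ran from -1.53 to 2.31, and no gene among them fell as far as the 4 decreased 3-O-sulphotransferases. The difference between these gene families was not tested.

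**Figure D5:**
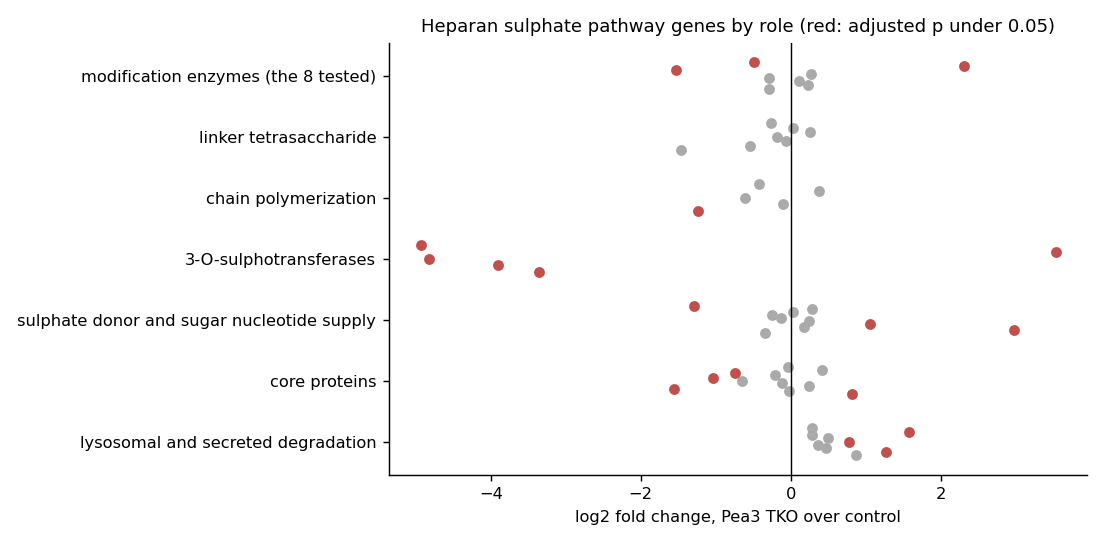
Log2 fold change of Pea3 TKO over control (x axis) for the tested modification enzymes and for the other tested genes of heparan sulphate metabolism by role, with genes at an adjusted p under 0.05 in red and the others in grey. The 3-O-sulphotransferases spread from -4.94 to 3.54, and no linker gene is red.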

How the data were processed

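Per the labels, the authors amplified RNA from laser-captured tissue with the Ovation RNA-seq System V2, made Illumina TruSeq libraries and sequenced them on a HiSeq2500. The submitters' processing notes name bcl2fastq 2.17, STAR 2.5.2b, featureCounts 1.5.0-p3, DESeq and the build mm10. Counting settings and annotation are not given in the sources used here. The deposited files hold raw counts per gene symbol, 1 table for each of 6 samples, without normalization by the authors.

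Genes were filtered with filterByExpr and normalized by TMM in edgeR 4.0.16 (R 4.3.3), and groups were compared by its quasi-likelihood test with Benjamini-Hochberg adjustment, a method tested on simulated data. Standard errors come from the F statistic and intervals from the t distribution of the fit. Levels per kb use the union of exons in GENCODE M21 (GRCm38), matched by symbol for 94.1% of tested genes. Count ratios were compared by exact permutation after adding 0.5 to each count. The limit of 3 counts covers counting error only, whereas the intervals include the spread between samples.

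Replicates were distinct libraries (chi-square per degree of freedom at least 15.5 in all pairs). Members and lists were chosen with earlier results of these data known. The named genes are the 10 enzymes, the targeted genes and, for each role of the pathway list, up to 2 genes with the smallest p in each direction. Alternatives covered other scalings, filters, DESeq2 1.42.0, a replicate block, a covariate for Y-linked expression and leaving out samples. A marker of the lacrimal gland bud list is not reported here.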

Additional observations from a re-analysis of the deposited data

How the results depend on the processing

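Other size factors (RLE, upper quartile, library size alone), both other filters and DESeq2 left the direction and the call of each of the 8 tested enzymes as reported. The same held with the replicate number as a block, where 3191 genes passed. Same-numbered samples did not deviate together (r of 0.144, -0.064 and 0.045), so the numbers were not taken as pairs. The settings that use Y-linked reads moved the results most. With the covariate for Y-linked expression 778 genes passed (492 increased, 286 decreased), with 10 of the pathway list and 0 of the enzymes by edgeR, of which 2 had an unadjusted p under 0.05. The log2 fold changes were then -1.30 for Hs6st2 (adjusted p = 0.0652), 1.11 for Sulf1 (0.344), -0.58 for Sulf2 (0.0845) and -0.030 for Ndst2. With the 4 libraries holding Y-linked reads alone, chosen after seeing the data, 597 genes passed (315 increased, 282 decreased), with 8 of the pathway list and 0 of the enzymes by edgeR, of which 2 had an unadjusted p under 0.05. These values were -1.27 for Hs6st2 (0.0597), 1.14 for Sulf1 (0.363), -0.56 for Sulf2 (0.066) and -0.023 for Ndst2. Both settings spend degrees of freedom or samples, and sex, mesenchymal RNA and library cannot be told apart in them. Without 1 sample at a time, 1948 to 3344 genes passed (1131 to 1948 increased, 799 to 1417 decreased), lowest without control replicate 3, 1963 without control replicate 2 and 2072 without Pea3 TKO replicate 2. Between 1 and 4 enzymes passed, 1 without control replicate 2. Log2 fold changes ran from -1.67 to -1.32 for Hs6st2, 1.80 to 3.04 for Sulf1, -0.56 to -0.45 for Sulf2, -0.41 to -0.23 for Hs2st1 and -0.087 to 0.34 for Glce. The 5 ratios kept their direction when 1 sample was left out or 1 was added to each count.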

Other observations

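Genes that supply, carry or degrade heparan sulphate were listed by role beside the modification enzymes. For comparison with the counts that follow, 13.6% of all tested genes rose and 11.3% fell. Of 10 genes for the sulphate donor and for sugar nucleotides, 2 rose and 1 fell. Papss2, which makes the sulphate donor PAPS used by every sulphotransferase described here, rose from 8.11 ± 7.3 CPM to 64.1 ± 22 CPM (log2 fold change 2.97, edgeR adjusted p = 0.0042). Its paralog Papss1 had 312 ± 15 CPM in control and 247 ± 21 CPM in Pea3 TKO and did not pass (edgeR adjusted p = 0.0527). Papss1 was named after its values were seen. Slc35b3, which carries PAPS into the Golgi, rose (log2 fold change 1.05, edgeR adjusted p = 0.0018), and the sugar nucleotide transporter Slc35d1 fell (-1.28, edgeR adjusted p = 0.0093).

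Of 12 core protein genes 11 were tested, of which 3 fell and 1 rose. Syndecan Sdc3 fell (log2 fold change -1.56, edgeR adjusted p = 2.6e-04), as did the glypican Gpc3 (-1.03, edgeR adjusted p = 0.0024), whereas Sdc1 rose (0.81, edgeR adjusted p = 0.0022). Of 9 genes for degradation in the lysosome or by secreted heparanase, 3 rose and 0 fell by the edgeR test (0 also at an unadjusted p under 0.05 and by DESeq2), with a median log2 fold change of 0.49 against 0.01 over all tested genes. Among them the iduronate sulphatase Ids rose from 6.34 ± 1.6 CPM to 15.3 ± 1.4 CPM (edgeR adjusted p = 0.0112) and the glucosaminidase Naglu (log2 fold change 0.78, edgeR adjusted p = 0.0236). With the 4 libraries that held Y-linked reads alone, an alternative chosen after seeing the data, Sdc3 (log2 fold change -1.39, edgeR adjusted p = 0.0161) and Gpc3 (-1.45, 0.0074) still passed. The others named as risen or fallen did not, at 2.35 for Papss2 (0.14), 0.96 for Slc35b3 (0.0661), -1.65 for Slc35d1 (0.0737), 0.70 for Sdc1 (0.0625), 1.32 for Ids (0.131) and 0.55 for Naglu (0.331).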
